A study of Mus musculus with 59 samples.

Results

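Granulocyte-monocyte progenitors (GMPs) taken from bone marrow at 24 weeks post induction (w.p.i.) of Daxx deletion were compared by RNA sequencing with GMPs of wild-type (WT) animals. The comparison used 6 of the 59 samples of the series. They were the animals with a GMP column in the 24 w.p.i. gene table, where the ending of the column name marked a control or a treated animal, and the values covered 51810 genes and, in a second table, 888 repeat subfamilies. WT animals (n = 2) were Daxx +/+ Cre +/-. Daxx-deleted animals (n = 4) carried floxed Daxx alleles, and by the labels 2 were Daxx F/F and 2 were Daxx F/F with Pu.1 F/F, all Cre +/-. All 6 were C57BL/6 mice of the Mx1Cre line, in which an interferon-inducible promoter drives Cre recombinase, and the study's methods describe induction with pI:pC, a double-stranded RNA mimic that raises interferon, so WT animals shared Cre and the interferon stimulus. Recombination in this line is not confined to GMPs. The column names did not say which deleted animals also carried floxed Pu.1, so both genotypes were pooled, and any difference between them lies within the spread of the deleted group. Libraries are called WT a and b and Daxx-deleted a to d, and a letter only names an animal.

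Daxx is a chaperone of the histone variant H3.3 that works with Atrx to deposit H3.3 in heterochromatin, including that of endogenous retroviruses. GMPs give rise to neutrophils and monocytes, and at this stage they make the proteases of the primary (azurophil) granules, whereas the proteins of secondary and tertiary granules are made later, as cells mature towards neutrophils. Pu.1, the product of Spi1, is a transcription factor that drives myeloid and B cell genes, and Gata1, with its partner Fog1 and with Klf1, drives erythroid and megakaryocyte genes.

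The gene libraries held 15484248 to 29418408 reads assigned to genes, and 3015449 to 5862619 reads of the same GMP libraries were counted on repeats. The cells carried the marks of the sorted gate in every library. Kit lay at 7754 to 10294 normalised counts, Cd34 at 1217 to 1601 and Fcgr3, which encodes CD16, at 2979 to 4897, while Ly6a, which encodes Sca-1 and is low in GMPs, lay at 3.4 to 103. Mpo alone reached 117132 to 197633. The T cell marker Cd3e was near 0, at 0 to 28.4, and the B cell marker Cd79a lay at 15.6 to 76.6. Genes of some other cells were present. In WT the beta-globin gene Hbb-bs lay at 5314 and 5368. Genes of eosinophils, basophils and mast cells, read as a list below, summed to 44199 and 29811 in WT. Principal component analysis placed 31.5% of the variance on a first component that did not part the genotypes, with the WT libraries at -111 and 67.0, and 27.4% on a second that did, with WT at -50.6 and -109 and the deleted libraries at 32.3 to 46.5.

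Daxx itself lay at 1322 and 737 normalised counts in WT and at 194, 153, 147 and 217 in the deleted libraries. Every deleted library was below both WT libraries, and the difference was -2.49 ± 0.30 (log2 fold change ± SE, WT n = 2, deleted n = 4, adjusted p = 3.40e-04, limma). The floxed part spans exons 2 to 7, and the count is over the whole gene. Spi1 lay at 7009 and 6463 in WT and at 7834, 6920, 7336 and 7810 in the deleted animals. These ranges overlapped (0.15 ± 0.10, adjusted p = 0.54), so the gene's total level did not mark the animals with floxed Pu.1. Mybpc3, a muscle myosin-binding protein gene that starts 2387 bases past the end of Spi1, lay at 109 and 23.8 in WT and at 145, 4448, 3752 and 4352 in the deleted libraries (5.11 ± 1.01, adjusted p = 0.0097). Libraries b, c and d were high and library a stood near WT a, whereas in KLS cells (Lin-Sca-1+c-Kit+ stem and progenitor cells) of the same animals library a was at 1525, library b at 31.8 and libraries c and d at 4456 and 4877. Mybpc3 was thus high in 3 deleted libraries of either cell type, though not under the same letters, against 2 animals labelled as floxed for Pu.1. GMP and KLS libraries share a letter by the number in their column names alone, so a swap of animals a and b in 1 of the tables cannot be told apart from a difference between the cell types.

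The groups also parted by genes of the Y chromosome, which only male cells carry. Ddx3y was at 0 in both WT libraries and at 1433, 1240, 1133 and 1500 in the deleted ones, at least 455-fold higher against a floor of 3 reads in each WT library. Eif2s3y was at 0 in WT and at 689 to 1120 in the deleted libraries, at least 307-fold higher, and Kdm5d and Uty, at 22.9 or less in WT, were at 735 or more. Kdm6a, an X-linked histone demethylase gene, was lower in the deleted GMPs (3903 and 3693 against 1979 to 2144, -0.88 ± 0.12, adjusted p = 6.07e-04), and X-linked Kdm5c fell by 0.50 (adjusted p = 0.0218), both picked after their values were seen. KLS cells of the same animals showed the same split, with Ddx3y at 0 and 0.80 in WT and at 1247 to 1691 in the deleted animals. Xist was listed at 0 in all 6 libraries. Expression of Y-linked genes therefore went with genotype in every library, and effects of Daxx deletion and of the animals' sex cannot be told apart in any result at 24 w.p.i. By the calls defined below, 4 of 9 tested Y-linked genes (44.4%), 11 of 557 X-linked genes (1.97%) and 598 of 16278 autosomal genes (3.67%) were called. GMPs at 3 w.p.i. came from other animals, and all 8 of those libraries had Ddx3y at 1.98 to 8.88, so there the Y-linked genes did not go with genotype.

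Across the genome, 16894 genes had a mean of 10 or more normalised counts and were tested. A gene is termed called where limma's p, adjusted by the Benjamini-Hochberg method over all of them, was under 0.05. The condition was met by 613 genes (3.63%), of which 377 were higher in Daxx-deleted GMPs (2.23%) and 236 lower (1.40%). The median log2 fold change over all tested genes was 0.01. An unadjusted p under 0.05 was met by 2660 of the 16894 genes, in either direction. Both WT libraries carried much of the test: 89 genes were called without WT b and 190 without WT a, when a single WT library is left and its spread is taken from the other genotype, and 398 without Daxx-deleted c and 393 without d.

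The gene lists differed in how many members were called. Among late neutrophil granule genes 23 of 29 were called higher, among megakaryocyte and erythroid genes 20 of 30 lower, and among genes of stem cell identity 7 of 24 lower. Genes bound by Pu.1 had 12 of 40 called higher, and primary granule genes had 4 of 17 called, 3 of them lower. Interferon-stimulated, nucleic acid sensing, p53 and stress genes had at most 3.23% of their tested members called, near the 3.63% of all genes. Bulk RNA does not part a change in the number of cells of a type within the gate from a change in RNA per cell, and these cannot be told apart in any list here.

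**Figure D1:**
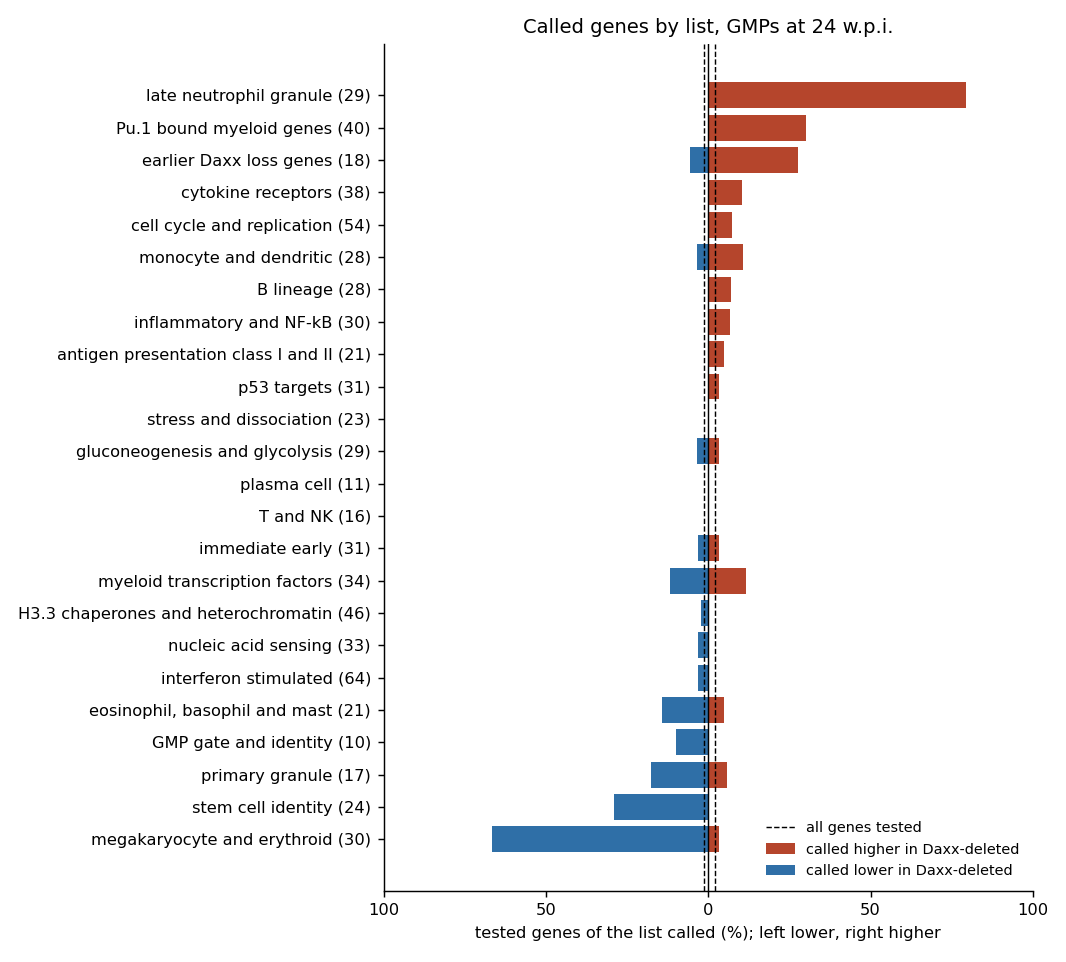
Share of the tested genes of each list called higher (to the right, red) or lower (to the left, blue) in Daxx-deleted GMPs at 24 w.p.i., in percent, with the number tested in brackets and the share over all genes as dashed lines (2.23% higher, 1.40% lower). Late neutrophil granule genes reach 79.3% higher and megakaryocyte and erythroid genes 66.7% lower.

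Genes of the late neutrophil granules were higher throughout. Of the 30 genes on the list, 29 were tested, 23 were called higher and 0 lower (median 1.66 on the log2 scale), and all 29 were higher and 0 lower at an unadjusted p under 0.05. edgeR called 22 and DESeq2 23 higher, and neither called any lower. In 28 of the 29 every deleted library lay above both WT libraries, against 12.7% of all tested genes that did so. Summed over the list, the level was 151402 and 158109 normalised counts in WT and 418554, 363989, 814978 and 897487 in deleted libraries a to d, so that the lowest deleted library was 2.30 times the highest WT library. Libraries c and d stood above a and b. Without WT b 4 of these genes were called and without WT a 8, with medians of 1.70 and 1.66.

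Promoter stretches of the genes for lactotransferrin, neutrophilic granule protein and CD177 are printed, because genes of this stage are known targets of C/EBP factors and Pu.1. The sequences are from RefSeq, build GRCm38.p6, upstream of the annotated exons and 5′ to 3′ on the gene's strand. Capitals mark the letters TTNNGNAA, a C/EBP-like motif, or GAGGAA, the core of a Pu.1 motif, on either strand, and no marked stretches overlap. Ltf is taken from chr9:111019121-111019270 (+), Ngp from chr9:110419597-110419746 (+) and Cd177 from chr7:24760312-24760461 (-).
Ltf: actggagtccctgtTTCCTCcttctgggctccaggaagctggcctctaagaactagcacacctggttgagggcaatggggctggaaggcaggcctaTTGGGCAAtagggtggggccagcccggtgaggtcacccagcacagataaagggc
Ngp: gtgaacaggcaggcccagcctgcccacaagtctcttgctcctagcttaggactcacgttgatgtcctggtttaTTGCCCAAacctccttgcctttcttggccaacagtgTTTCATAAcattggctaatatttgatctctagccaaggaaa
Cd177: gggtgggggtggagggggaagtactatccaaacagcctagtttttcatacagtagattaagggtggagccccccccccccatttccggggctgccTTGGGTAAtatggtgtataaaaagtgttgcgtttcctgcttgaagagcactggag
Of the 23 called genes, 19 had a promoter in the RefSeq table. In the 250 bases upstream of the start, 14 of these 19 (73.7%) held TTNNGNAA, against 36.9% of all 27025 promoters, and 10 (52.6%) held GAGGAA, against 23.1%. These are counts of letters and say nothing of binding.

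Ltf, which encodes the iron-binding protein of secondary granules, lay at 11736 and 12504 in WT and at 58216, 42070, 90031 and 116801 in the deleted GMPs. No deleted library came near the WT level, and the rise was 2.56 ± 0.27 (adjusted p = 9.94e-05). Lcn2, a siderophore-binding protein, rose from 5963 and 5972 to 28994, 20027, 54846 and 60731 (2.64 ± 0.31, adjusted p = 2.19e-04). Both were called with any 1 library left out. Ngp rose from 29455 and 33522 to 99864, 119014, 285544 and 303352 (2.51 ± 0.34, adjusted p = 6.06e-04), which made it one of the most abundant messages of the deleted GMPs, above Mpo in libraries c and d. Camp, the cathelicidin of secondary granules, rose from 9214 and 8066 to 24653, 24093, 57575 and 57552 (2.12 ± 0.29), and Cd177 from 2799 and 2881 to 10146, 8409, 20514 and 24903 (2.35 ± 0.31). The calcium-binding pair S100a8 and S100a9 rose by 1.56 ± 0.31 and 1.64 ± 0.29. In each of these genes the levels of libraries c and d were above those of a and b. Ngp, Camp, Cd177, S100a8 and S100a9 were picked after their values were seen.

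Mmp9, the gelatinase of tertiary granules, followed another order among the animals. It lay at 326 and 385 in WT and at 2524, 2666, 1051 and 1911 in the deleted libraries (2.43 ± 0.28, adjusted p = 2.19e-04), so a and b were highest. Stfa2, which encodes the protease inhibitor stefin A2, was at 0 in both WT libraries and at 282, 120, 55.9 and 47.7 in the deleted ones, at least 43.4-fold higher, again with a and b on top. Reads of Stfa2 may be shared with its near copies Stfa2l1 and BC100530, so its level is uncertain. Lyz2, lysozyme, rose from 6627 and 6443 to 19170, 14432, 29839 and 33175 (1.81 ± 0.23, adjusted p = 4.61e-04). Ly6g, the surface antigen used to mark mature neutrophils, rose from 48.0 and 17.9 to 129, 237, 540 and 636 (3.40 ± 0.60, adjusted p = 0.0043), and so stayed a minor message beside Ltf or Ngp. It was picked after its values were seen.

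**Figure D2:**
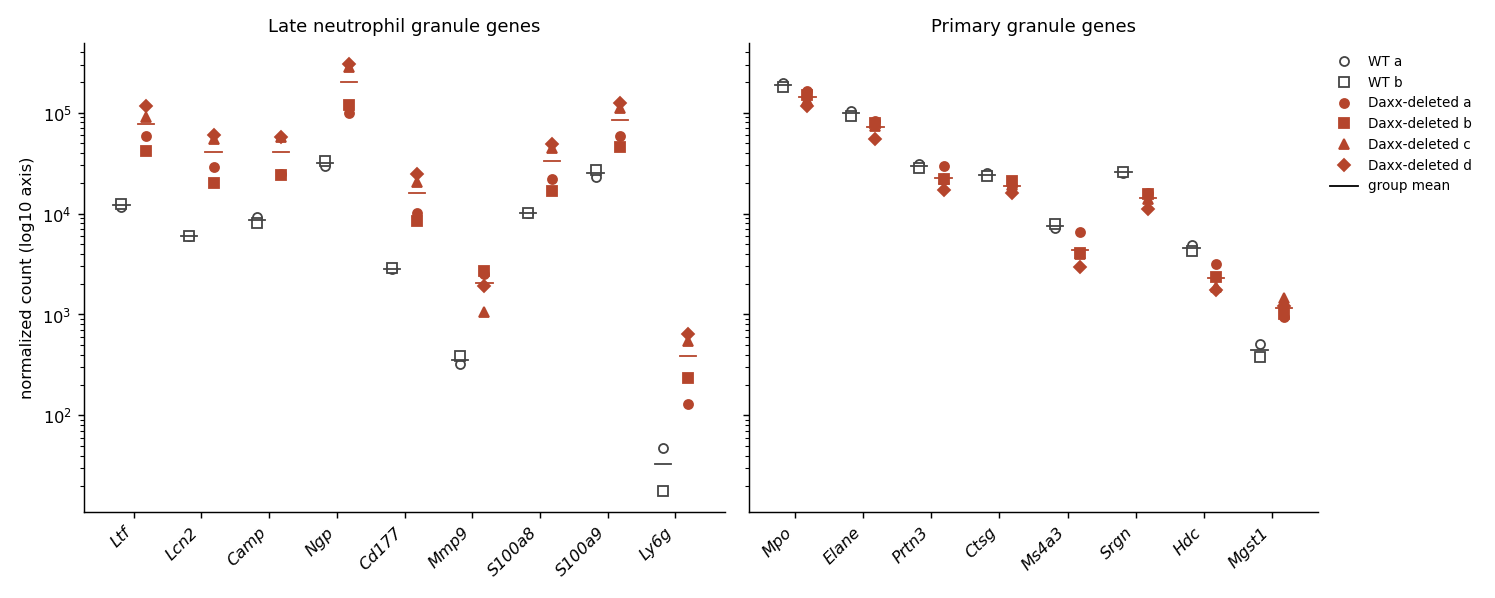
Normalised counts per library on a log10 axis for late neutrophil granule genes (left) and primary granule genes (right), WT libraries as open and Daxx-deleted libraries as filled symbols, with a line at each group mean. All deleted libraries lie above WT for the late genes shown, whereas Mpo and Elane lie slightly below WT and Mgst1 above.

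Primary granule genes, which mark the GMP stage itself, did not rise with the late ones. Of 17 tested, 1 was called higher and 3 lower (23.5%, against 3.63% of all genes), with a median of -0.38, and at an unadjusted p under 0.05 3 were higher and 8 lower. The summed level was 490052 and 463184 in WT against 422843, 395851, 354693 and 301107 in deleted libraries a to d. Mpo, myeloperoxidase, lay at 197633 and 181561 in WT and at 164058, 150776, 134105 and 117132 in the deleted libraries. All 4 deleted values were below WT, but the difference of -0.43 ± 0.12 was not called (adjusted p = 0.067). The serine proteases Elane (-0.45 ± 0.13, adjusted p = 0.089), Ctsg (-0.38 ± 0.11, adjusted p = 0.086) and Prtn3 (-0.42 ± 0.15, adjusted p = 0.18) were likewise not called by limma, while DESeq2 called Mpo, Elane and Ctsg lower, of which Ctsg was picked after its values were seen. Srgn, the granule proteoglycan, fell by 0.87 (25430 and 25940 against 15977, 15741, 13954 and 11079, SE 0.13, adjusted p = 0.0013), Hdc, which makes histamine, fell by 1.03 (SE 0.19, adjusted p = 0.0056), and Ms4a3, a gene restricted to GMPs and their offspring, fell by 0.86 (SE 0.21, adjusted p = 0.033). Mgst1, a microsomal glutathione transferase, rose from 513 and 377 to 948, 1009, 1445 and 1224 (1.37 ± 0.21, adjusted p = 0.0014).

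Transcription factors of granulocyte and monocyte fate changed in both directions. Of 34 tested, 4 were called higher and 4 lower (11.8% each, against 2.23% and 1.40% of all genes), with a median of 0.18. Cebpa and Cebpe, which act early and late in granulopoiesis, were not called (-0.08 ± 0.12 and 0.53 ± 0.21), and Cebpe lay at 1511 and 1347 in WT and at 1933, 1391, 2694 and 2502 in the deleted libraries. Irf8, the factor of monocyte and dendritic cell fate, rose from 5974 and 5378 to 7635, 11417, 9344 and 10828 (0.77 ± 0.14, adjusted p = 0.0054), and Rara, a retinoic acid receptor, from 296 and 228 to 501, 667, 748 and 712 (1.32 ± 0.24, adjusted p = 0.0048). Id1 and Bcl6 rose by 1.72 ± 0.42 and 0.98 ± 0.22, and Gfi1, a repressor needed for neutrophils, and Myb, a progenitor factor, fell by 0.56 (SE 0.14) and 0.51 (SE 0.12). These last 4, like Cebpa and Cebpe, were picked after their values were seen.

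Among 28 monocyte and dendritic cell genes, 3 were called higher (10.7%, against 2.23% of all genes) and 1 lower (3.57%, against 1.40%). They were Irf8, Ly86 (0.72 ± 0.14), Lgals3, the lectin galectin-3 (1.35 ± 0.27), and Clec12a, an inhibitory receptor, which fell by 0.47 (SE 0.11). The summed level of this list was 69669 and 69866 in WT and 75465 to 85275 in the deleted libraries, a far smaller difference than in the late granule list. Genes that Pu.1 is known to bind in myeloid cells showed 12 of 40 called higher and 0 lower by limma (median 0.37). The share called higher was 30%, against 2.23% of all genes. At an unadjusted p under 0.05, 20 were higher and 5 lower, and DESeq2 called 14 higher and 3 lower. The kinase gene Fgr rose by 1.36 ± 0.19 (866 and 691 against 2307, 1416, 2116 and 2259), the signalling chain gene Fcer1g by 1.26 ± 0.20 and the integrin gene Itgb2 by 0.94 ± 0.17. This list shares Lyz2, Itgam and Cybb with the late granule list and Irf8 with the transcription factors. With 1 WT library left out, 5 (without a) or 1 (without b) of its genes were called.

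Megakaryocyte and erythroid genes were the largest group of falls. Of 30 tested, 20 were called lower and 1 higher, with a median of -3.00, and in 25 every deleted library lay below both WT libraries, against 12.1% of all tested genes. Summed over the list, the level was 32610 and 36537 in WT and 13514, 12695, 10593 and 15161 in the deleted libraries. Against the 490052 and 463184 counts of the primary granule genes, these were minor messages in WT GMPs already. Without WT b 4 and without WT a 6 of the genes were called lower, with medians of -2.64 and -3.09.

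Gata1 and Klf1, the lead erythroid factors, are printed with the stretch upstream of their exons (RefSeq, GRCm38.p6, 5′ to 3′ on the gene's strand). Capitals mark AGATAA, a form of the Gata1 motif, or CACACCC, a form of the Klf1 motif, on either strand. Of these exact letters only CACACCC was present, and other forms of the motifs were not searched for or marked. Gata1 is taken from chrX:7967911-7968060 (-) and Klf1 from chr8:84901778-84901927 (+).
Gata1: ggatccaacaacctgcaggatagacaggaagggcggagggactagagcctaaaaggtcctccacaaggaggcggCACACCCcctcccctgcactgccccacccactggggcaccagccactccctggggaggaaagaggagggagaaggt
Klf1: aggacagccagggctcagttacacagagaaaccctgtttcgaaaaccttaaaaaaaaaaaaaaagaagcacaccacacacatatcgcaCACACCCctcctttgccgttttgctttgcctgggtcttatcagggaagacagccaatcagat
Of the 20 called genes, 13 had a promoter in the table, of which 3 (23.1%) held CACACCC and 3 held AGATAA, against 6.85% and 10.3% of all promoters. Each motif was also counted in the other list. Of the late granule promoters 26.3% held AGATAA and 21.1% CACACCC, and of the megakaryocyte and erythroid promoters 53.8% held TTNNGNAA and 38.5% GAGGAA.

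Zfpm1, which encodes the Gata1 partner Fog1, had the smallest adjusted p of the list. It lay at 3758 and 3276 in WT and at 862, 714, 613 and 632 in the deleted GMPs (-2.33 ± 0.17, adjusted p = 2.12e-06). Gata1 lay at 503 and 397 in WT and at 49.99, 40.3, 69.6 and 58.6 in the deleted animals (-3.04 ± 0.45, adjusted p = 0.0013). In both factors the deleted animals formed a tight group well below WT. Klf1 spread more, from 188 and 464 in WT to 37.9, 17.4, 4.58 and 52.4 (-3.79 ± 0.86, adjusted p = 0.023), and Tal1, a partner of both lineages, fell by 1.07 (SE 0.23). Gata1, Klf1 and Tal1 were picked after their values were seen.

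Other genes of red cells fell as well, the globins and Car1 further than Klf1, and Ank1 and Car2 less far. Hbb-bs, an adult beta-globin, lay at 5314 and 5368 in WT and at 126, 138, 210 and 1187 in deleted libraries a to d (-4.38 ± 0.61, adjusted p = 7.30e-04), and library d stood apart from the other deleted libraries. Hba-a1, an alpha-globin, was likewise highest in d among the deleted libraries (1811 and 2049 against 27.3, 51.3, 30.2 and 519). Reads of Hba-a1 and Hba-a2 and of Hbb-bs and Hbb-bt can be shared between near-identical copies, so single copies are uncertain, but all 4 were called lower. Ank1, an ankyrin of the red cell membrane skeleton, fell by 3.19 (SE 0.41), Car1, a red cell carbonic anhydrase, fell by 5.89 (SE 1.20) and Car2 by 2.73 (SE 0.31). Megakaryocyte genes fell alike: Pf4, platelet factor 4, lay at 812 and 394 in WT and at 77.3, 72.4, 5.49 and 79.8 in the deleted GMPs, and Vwf at 1394 and 999 against 323, 194, 65.0 and 123 (-2.97 ± 0.46, adjusted p = 0.0017). Itga2b, the platelet integrin, fell by 1.5 (SE 0.21). Pf4, Vwf, Itga2b and Cd9 were picked after their values were seen. Cd9, a tetraspanin of platelets that many other cells make too, was the single member called higher (913 and 696 against 1562, 1428, 1935 and 2256, 1.15 ± 0.19).

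Genes of stem cell identity fell beside them. Of 24 tested, 7 were called lower (29.2%, against 1.40% of all genes) and 0 higher by limma, with a median of -0.93. At an unadjusted p under 0.05, 14 were lower and 1 higher, and edgeR and DESeq2 called 7 and 6 lower and 0 higher. Meis1, a homeobox gene of stem cells, lay at 2611 and 3414 in WT and at 970, 866, 703 and 1023 in the deleted libraries (-1.76 ± 0.18, adjusted p = 7.12e-05) and was called with any 1 library left out. Mecom fell by 1.41 (942 and 1751 against 491, 541, 484 and 425, SE 0.23), Gata2, shared by stem, mast and megakaryocyte cells, by 1.30 (SE 0.24), and the channel gene Trpc6 by 2.41 (SE 0.44). Angpt1, Mllt3 and Tek, picked after their values were seen, fell by 1.31 (SE 0.26), 0.80 (SE 0.16) and 2.79 (SE 0.65). Ly6a, by contrast, was highest in the deleted libraries (32.0 to 103 against 21.8 and 3.4) and was not called. Without WT b 1 and without WT a 3 members were called lower.

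**Figure D3:**
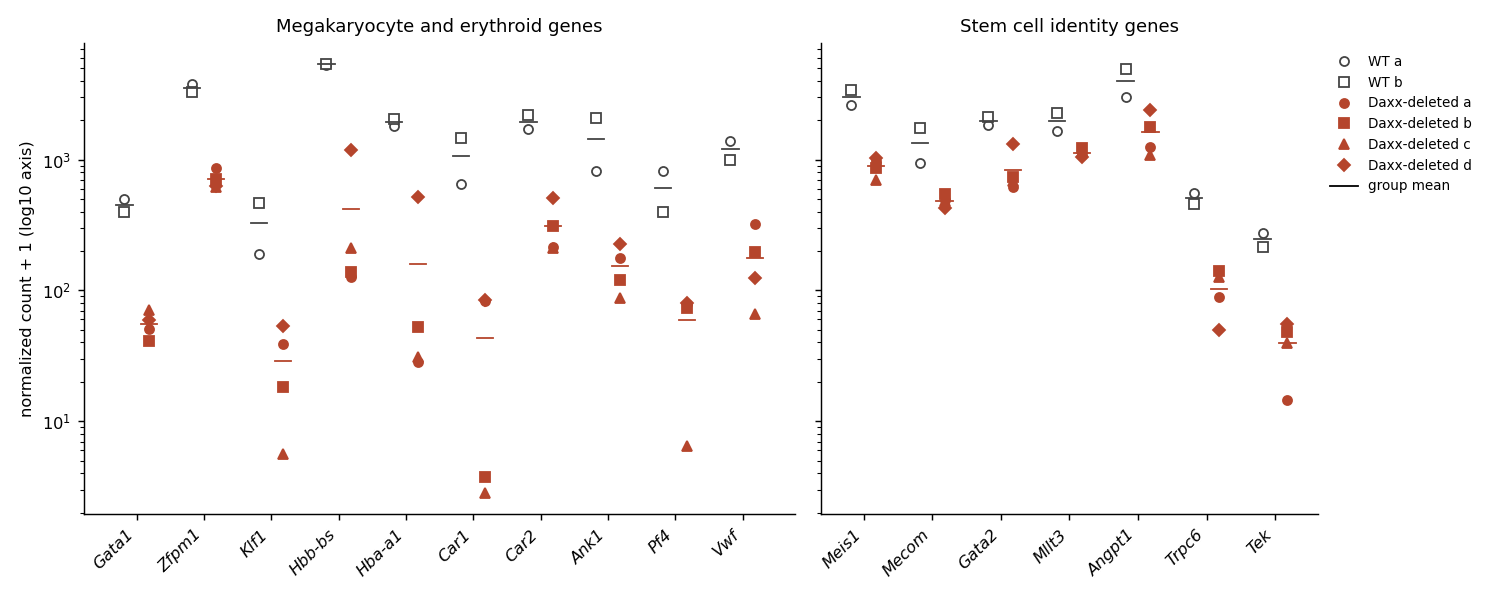
Normalised count plus 1 per library on a log10 axis for megakaryocyte and erythroid genes (left) and stem cell identity genes (right), WT libraries as open and Daxx-deleted libraries as filled symbols, with a line at each group mean. Deleted libraries lie below WT in every gene shown, and library d is the highest deleted library for both globin genes.

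Genes of eosinophils, basophils and mast cells varied widely between the deleted animals, which hold both floxed genotypes. Of 21 tested, 3 were called lower (14.3%, against 1.40% of all genes) and 1 higher (4.76%, against 2.23%), with a median of -1.25. The summed level was 44199 and 29811 in WT and 26259, 23618, 11818 and 13537 in the deleted libraries. Siglecf, an eosinophil lectin, fell by 1.92 (984 and 1023 against 559, 187, 180 and 260, SE 0.37), while Csf2rb, the common beta chain of cytokine receptors, rose by 0.46 ± 0.11. The granule genes Epx and Prg2, picked after their values were seen, lay at 12494 and 6396, and 11772 and 6067, in WT. Deleted libraries a and b were at 5998 and 5850 for Epx, close to WT b, and c and d at 423 and 7.04, and neither gene was called (adjusted p = 0.29 for Epx and 0.22 for Prg2). Of 28 B lineage genes, Ighm (0.87 ± 0.20) and Dntt (2.12 ± 0.53) were called higher (7.14%, against 2.23% of all genes), and edgeR called 1 of the list. Dntt was at 1.17 without WT a (adjusted p = 0.39) and at 3.07 without WT b (adjusted p = 0.059). None of the 11 tested plasma cell genes or of the 16 T and NK cell genes was called by limma. At an unadjusted p under 0.05 this held for 1 of each list, edgeR called none, and DESeq2 called 1 plasma cell gene higher and 1 T and NK cell gene lower.

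Few interferon-stimulated genes were called. Of 64 tested, 2 were lower and none higher by limma (median -0.12), while 7 were higher and 10 lower at an unadjusted p under 0.05, and edgeR called 3 lower and DESeq2 2 higher and 4 lower. Those called by limma were Slfn8, which fell by 0.99 (SE 0.23), and Eif2ak2, a sensor of double-stranded RNA, which fell by 0.57 (2003 and 2490 against 1468, 1666, 1362 and 1554, SE 0.14). Among 33 genes of nucleic acid sensing, Eif2ak2 was the single one called. Of 30 inflammatory genes, the cytokine gene Tnf rose from 41.5 and 52.7 to 226, 195, 122 and 317 (2.10 ± 0.46, adjusted p = 0.018) and the decoy receptor gene Il1r2 from 230 and 258 to 647, 562, 537 and 498 (1.19 ± 0.23, adjusted p = 0.0074), with 0 called lower by limma, edgeR or DESeq2 and 1 lower at an unadjusted p under 0.05. These 2 rises made up 6.67% of the inflammatory genes tested, against 2.23% of all genes, and Tnf was a low message throughout. Of 38 cytokine receptor genes, 4 were called higher (10.5%, against 2.23% of all genes), Il1r2 and Csf2rb among them. Il6st rose by 0.59 ± 0.13 and Il18r1 by 1.83 ± 0.47.

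Among 31 immediate-early genes, Fosl2 rose by 0.94 ± 0.14 and Ppp1r15a, a stress-induced phosphatase subunit, fell by 1.32 (SE 0.34). No other member was called, so the share was 3.23% in each direction, against 2.23% higher and 1.40% lower of all genes. Of 54 cell cycle and replication genes, 4 were called higher (7.41%, against 2.23% of all genes) and 0 lower by limma (median 0.13). At an unadjusted p under 0.05, 17 were higher and 2 lower, and DESeq2 called 8 higher and 1 lower. In 21 of the 54 every deleted library lay above both WT libraries and in 2 below, against 12.7% and 12.1% of all tested genes. E2f2 rose by 0.86 ± 0.19, Ccnd3, cyclin D3, by 0.63 ± 0.14, Ccnf by 0.52 ± 0.13 (0.34 without WT b, adjusted p = 0.35) and Rrm2, a ribonucleotide reductase subunit, by 0.42 ± 0.11. Of 31 p53 targets, the cell cycle inhibitor gene Cdkn1a was the single one called, at 45.9 and 97.8 in WT and at 197 to 214 in the deleted libraries (1.57 ± 0.41, adjusted p = 0.049). It lost its call with any 1 library left out, with fold changes from 1.03 (without WT a) to 2.11 (without WT b). For the p53 targets edgeR called 0 (4 at an unadjusted p under 0.05) and DESeq2 2. Of 29 glucose metabolism genes, the glucose transporter gene Slc2a3 rose from 660 and 663 to 1297, 1730, 2272 and 2767 (1.55 ± 0.23, adjusted p = 0.0013) and G6pc3, a glucose-6-phosphatase needed by neutrophils, fell by 0.65 (SE 0.16). For glucose metabolism the share called was 3.45% in each direction, against 2.23% higher and 1.40% lower of all genes. Of 21 antigen presentation genes H2-D1 rose by 0.39 ± 0.09 and was the single member called (4.76%, against 3.63% of all genes).

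Of the 46 tested genes for H3.3 chaperones and heterochromatin, Daxx was the single one called (2.17%, against 3.63% of all genes). Its partner Atrx lay at 14126 and 13585 in WT and at 11914, 12507, 10848 and 12142 in the deleted libraries (-0.23 ± 0.10, adjusted p = 0.27), Dnmt1 differed by -0.22 ± 0.10 and Hira, the other main H3.3 chaperone, by -0.20 ± 0.28. Hira was picked after its values were seen. None of 23 stress and dissociation genes was called by limma (4 at an unadjusted p under 0.05), edgeR and DESeq2 each called 1 higher, and the 15 mitochondrially encoded genes were at 0 in every library.

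Beyond the lists, the largest rises outside the Y chromosome included Cyp2a5, a cytochrome P450 gene with near copies, at 0 in both WT libraries and at 87.9, 541, 485 and 522 in the deleted ones, at least 140-fold higher. Orm1, which encodes an acute-phase glycoprotein, rose from 38.2 and 47.6 to 320, 403, 986 and 1208 (3.84 ± 0.46, adjusted p = 2.92e-04), Hspa12a, an atypical heat shock protein gene, from 19.7 and 49.3 to 268, 362, 1216 and 1134 (4.23 ± 0.56), and Sema4c, a semaphorin gene, from 3.28 and 0 to 37.9, 60.5, 138 and 147 (5.34 ± 1.00). Orm1, Hspa12a and Sema4c were highest in libraries c and d. The largest falls were dominated by globins and red cell genes and also held Gdf3, a growth factor gene (-5.88 ± 1.34), Pklr, the red cell pyruvate kinase (-5.68 ± 1.39), Sphk1, sphingosine kinase (-5.05 ± 1.12), Trim10, a gene of terminal erythropoiesis (-4.79 ± 1.18), Atp1b2 (-5.08 ± 1.31) and Paqr9 (-4.95 ± 1.24).

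A further list held genes linked to earlier stages after Daxx loss. The study's text names some of them, and the others were chosen from samples of this series, so its count is not independent evidence. Of its 20 members 18 were tested, and 5 were called higher (27.8%, against 2.23% of all genes) and 1 lower (5.56%, against 1.40%). Lrg1, a leucine-rich glycoprotein of granulocytes, rose from 603 and 809 to 1377, 1147, 2552 and 2843 (1.40 ± 0.29), Kcng1, a potassium channel gene, from 138 and 70.6 to 282, 336, 234 and 303 (1.53 ± 0.36), Gm35572 by 3.83 ± 0.81 and Dntt, terminal transferase, from 43.7 and 167 to 262, 244, 356 and 869. Thbs4, a matrix protein gene, rose by 4.01 ± 1.05, but libraries c and d, at 901 and 1239, stood far above a and b, at 43.9 and 76.1, with WT at 17.5 and 11.9. At 3 w.p.i. Thbs4 differed by 0.16 in Daxx-KO GMPs (adjusted p = 1.00) and was called higher in GMPs with both Daxx and Pu.1 deleted (7.80, adjusted p = 0.0056), and Mybpc3 likewise differed by 0.26 in the former (adjusted p = 1.00) and by 6.40 in the latter (adjusted p = 0.010). The zinc finger gene Zfp951, one of a family of near copies, fell from 433 and 532 to 10.6, 58.7, 3.66 and 45.3 (-4.61 ± 0.89). The other tested members were not called and ranged from -3.68 for Gm48693 to 1.91 for Pcdh11x, with Gm21989 at -2.50, Strc at 1.72, Kcnk12 at -0.88, Fbp1 at 0.67, 1700030N03Rik at 0.65, Mid1 at 0.59, Gm21887 at 0.48, Wls at 0.29, Mx1 at 0.02 and Egr1 at -0.81, while Fbp2 and Igkv1-110 were too low to test.

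The same lists were read in KLS cells of the same 6 animals, where 133 of 16485 genes were called (0.807%, 0.309% higher and 0.497% lower). An unadjusted p under 0.05 was met by 1370 of the 16485 genes, in either direction. That table was normalised apart, so no test ran between the cell types. Late granule genes were called higher in 11 of 29 (median 1.94) and megakaryocyte and erythroid genes lower in 12 of 30 (median -3.18). Deleted and WT libraries did not overlap in 22 of the former (deleted above) and in 24 of the latter (deleted below), against 9.05% and 8.76% of all genes tested in KLS cells. Lcn2 was at 971 and 1153 in WT KLS cells and at 9819, 6140, 5926 and 7342 in deleted ones (2.76, adjusted p = 0.0012), and Hbb-bs was at 14496 and 15738 against 544, 783, 176 and 794 (-4.93, adjusted p = 0.0040). Stem cell identity genes had 7 of 24 called lower in GMPs and 0 of 28 in KLS cells by limma (9 lower at an unadjusted p under 0.05), where the median was -0.52 and Meis1 lay at 28082 and 19902 against 13533 to 22624. Primary granule genes had a median of -0.38 in GMPs and of 0.55 in KLS cells, where 0 of 17 were called by limma and 8 were higher at an unadjusted p under 0.05.

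GMPs at 3 w.p.i., from other animals of the same line, gave values of another kind. The Daxx-KO (n = 3) and the Daxx and Pu.1 double-KO (DKO, n = 2) were each set against the same 3 WT libraries, and 13 (0.0948%, 0.0656% higher and 0.0292% lower) and 40 (0.292%, 0.211% higher and 0.0802% lower) of 13714 genes were called. No late granule gene of 26 was called by limma in either comparison, 0 in Daxx-KO and 3 in DKO had an unadjusted p under 0.05, and the medians were -0.88 in Daxx-KO and -0.26 in DKO. For the 26 megakaryocyte and erythroid genes tested the medians were -0.69 and -0.27, again with 0 called and with 7 and 2 lower at an unadjusted p under 0.05. Over all 13714 genes, 433 in Daxx-KO and 961 in DKO had an unadjusted p under 0.05, in either direction. Daxx was called lower in both, by 3.18 and 3.19, as was Zfp951, by 5.96 (adjusted p = 0.019) and 6.08 (adjusted p = 0.027), while Dntt was called higher in Daxx-KO alone (6.17, adjusted p = 0.023, against 3.07, adjusted p = 0.32, in DKO, a difference that was not tested). Time and animals differ together between these tables, and sequencing run may differ too. Y-linked genes were near 0 in all libraries at 3 w.p.i. but high in the deleted animals at 24 w.p.i. The difference between 3 and 24 w.p.i. was not tested.

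**Figure D4:**
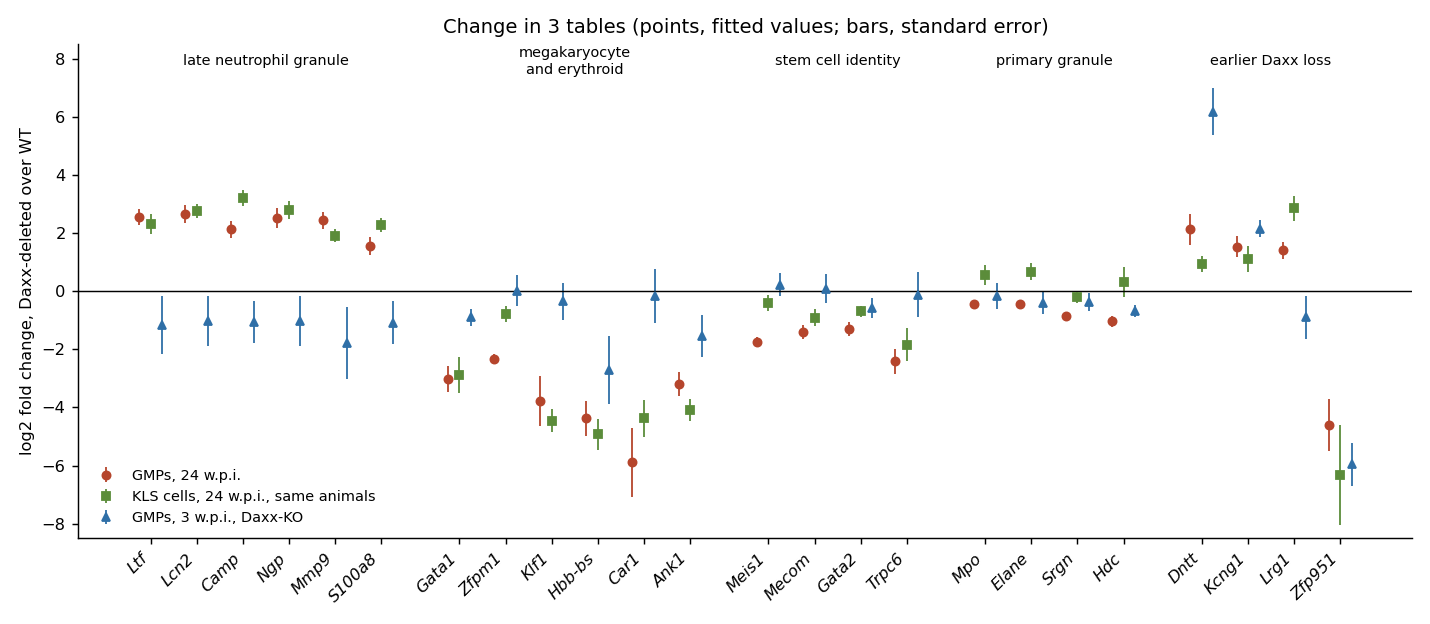
Log2 fold change of Daxx-deleted over WT (points, with bars for the standard error) for genes of 5 lists in 3 separately normalised tables: GMPs at 24 w.p.i. (circles), KLS cells of the same animals (squares) and GMPs of Daxx-KO animals at 3 w.p.i. (triangles). Late granule genes lie above 0 in both 24 w.p.i. tables and below 0 at 3 w.p.i., where none of that list was called.

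Transcripts of repeats were counted per subfamily in a separate table. Endogenous retroviruses are grouped into ERV1, ERVK and ERVL classes, intracisternal A particles (IAPs) are a young ERVK group, a name that ends in int is the internal, protein-coding part of an element, and the other names are mostly its long terminal repeats. Of 842 subfamilies tested with edgeR, 15 were called (1.78%), 13 higher (1.54%) and 2 lower (0.238%). Deleted libraries lay above WT without overlap in 78 subfamilies (9.26%) and below in 80 (9.50%). Above and below numbered 14 and 9 of 129 for ERV1 and 27 and 29 of 253 for ERVK other than IAP. For ERVL they were 13 and 12 of 107, and for IAP 5 and 1 of 25. All 13 rises were endogenous retroviruses, 4 of 129 ERV1, 6 of 253 ERVK other than IAP and 3 of 25 IAP subfamilies, against 1.54% of all subfamilies. With ERVL and ERVL-MaLR, these groups also make up most of the 842 subfamilies tested. Of the 13 rises, 9 were among the 133 internal parts and 4 among the 709 other subfamilies. None of 132 L1, 107 ERVL or 100 ERVL-MaLR subfamilies was called by edgeR, where 7, 14 and 11 had an unadjusted p under 0.05, and DESeq2 called 2, 1 and 2 of them. Over all 842 subfamilies, 92 had an unadjusted p under 0.05 in edgeR.

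IAPLTR3-int had the smallest adjusted p. It lay at 90.8 and 123 CPM (counts scaled to a fixed total of repeat reads per library) in WT and at 362, 321, 401 and 347 in the deleted libraries (1.76 ± 0.15, adjusted p = 8.42e-07), so that the deleted animals formed a tight group apart from WT. IAP1-MM_I-int rose from 54.6 and 48.3 to 131, 129, 183 and 204 (1.67 ± 0.22, adjusted p = 1.15e-04). MMVL30-int, a virus-like element that retroviral particles can package, rose from 757 and 664 to 3392, 2873, 1380 and 2272 (1.83 ± 0.24, adjusted p = 1.18e-04), highest in a and b. SRV_MM-int rose from 214 and 147 to 408, 396, 615 and 864 (1.68 ± 0.25, adjusted p = 5.04e-04), highest in c and d. Murine leukaemia virus-like elements rose too: RLTR4_MM-int, the most abundant of the subfamilies called higher, went from 5313 and 6782 to 13465, 11564, 16151 and 15680 (1.26 ± 0.11), MuLV-int from 1604 and 2106 to 5132, 3640, 4500 and 5071 (1.33 ± 0.13) and RLTR4_Mm, their terminal repeat, rose by 1.03 ± 0.13. These 3 parts lie on the same elements and are not independent counts. IAPEz-int, the bulk of IAP reads, lay at 6516 and 7389 in WT and at 7720, 8272, 9097 and 8133, a small rise (0.28 ± 0.07, adjusted p = 0.049). RLTR4_MM-int, MuLV-int, RLTR4_Mm and IAPEz-int were picked after their values were seen. The 2 falls were the satellite MMSAT4 (-0.44 ± 0.08) and the terminal repeat IAPLTR2a2_Mm (-0.43 ± 0.11, adjusted p = 0.044).

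**Figure D5:**
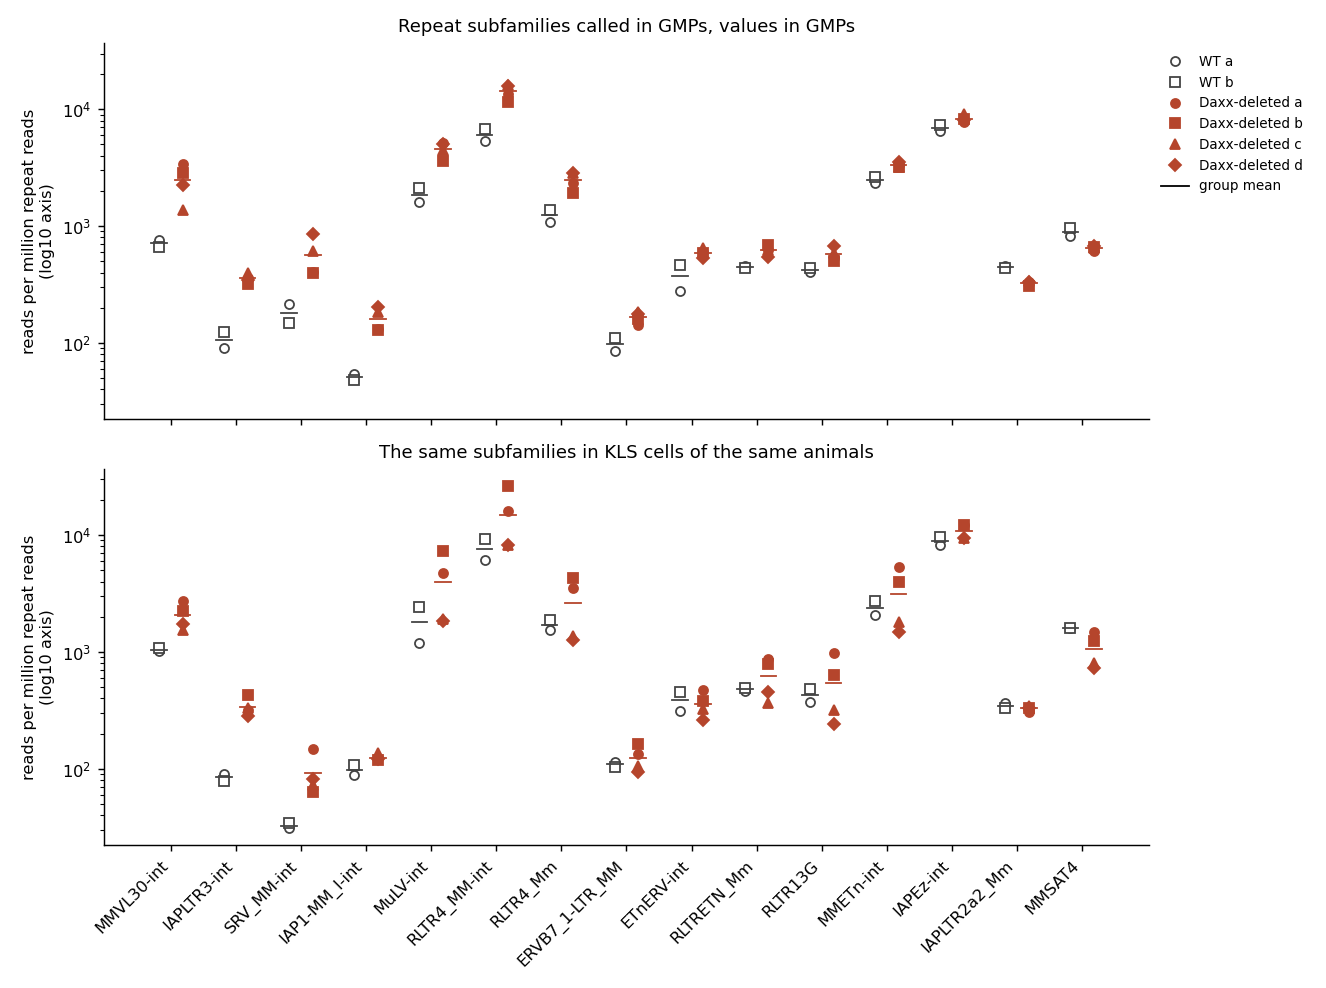
Level per library (CPM of repeat reads) on a log10 axis for the 15 subfamilies called in GMPs, in GMPs (top) and in KLS cells of the same animals (bottom), WT libraries as open and Daxx-deleted libraries as filled symbols, with a line at each group mean. In GMPs all deleted libraries lie on 1 side of WT, and in KLS cells libraries c and d of MuLV-int and RLTR4_MM-int lie among WT.

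Summed over families, 1 of 23 was called (4.35%). ERV1 lay at 22803 and 26064 CPM in WT and at 38390, 34992, 39522 and 41211 in the deleted GMPs (0.64 ± 0.09, adjusted p = 0.0040), with no overlap, and stayed called with any 1 library left out. IAP lay at 10551 and 11536 in WT and at 12208, 12697, 14141 and 12598 (0.21 ± 0.07, adjusted p = 0.16), which also did not overlap but was not called. In KLS cells IAPLTR3-int was the 1 subfamily of 838 called (0.119%), at 91.0 and 79.3 in WT and at 320, 425, 329 and 282 in deleted animals (2.03 ± 0.22, adjusted p = 0.013). MuLV-int lay at 1190 and 2429 in WT KLS cells and at 4788, 7243, 1928 and 1851 in deleted libraries a to d, so only a and b were above WT there. The effect on family sums was tested for a difference between GMPs and KLS cells in edgeR, with 0 of 23 families called (0.00%) and 1 at an unadjusted p under 0.05. The difference, GMPs minus KLS cells, was 0.15 ± 0.39 for ERV1 and -0.04 ± 0.16 for IAP (adjusted p = 0.90 for both).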

How the data were processed

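RNA of sorted GMPs (and, for values set beside them, KLS cells of the same animals and GMPs at 3 w.p.i.) was sequenced by the authors on Illumina instruments. The submitters' processing notes name CASAVA 1.8.4, cutadapt 1.13, STAR 2.5.3, DESeq2 1.16.1 and the build mm10. The read counter and its strand setting were not given in the sources used here, and labels and methods name different library kits, so overlapping genes and near copies are uncertain. The authors deposited normalised gene counts (a size-factor scaled signal), from which whole reads were recovered for every value within 0.01, and a table of raw read counts per repeat subfamily. The 79 value columns of other samples or comparisons were not used.

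Animals were grouped by the labels and the ending of the column names, and Daxx was checked in every library. Genes with a mean of 10 or more normalised counts were tested with limma 3.58.1 (R 4.3.3) on log2(normalised count + 1) with a mean-variance trend, so fold changes of low genes are understated. Repeats were tested by the quasi-likelihood test of edgeR 4.0.16 after TMM scaling. Features with p under 0.05 after Benjamini-Hochberg adjustment over every feature tested are called. Columns were from separate animals. An exact permutation test of 2 against 4 animals cannot reach 0.05 and was not used. Fold changes are given ± SE, and where a group had no reads a bound was set at 3 reads per library. Floors cover counting error only. GMP and KLS libraries were paired by the animal number in the column names, though the Mybpc3 values leave a swap of deleted animals a and b possible. The deviations of paired libraries from their group means correlated at -0.03 to 0.12 over genes and at -0.05 to 0.04 over repeats.

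Genes were named by a rule: Daxx and Spi1, the 12 largest rises and falls among called genes without overlap and with a mean of 50 or more, the 4 called members of each list with the smallest adjusted p (or the 3 most abundant where fewer than 2 were called), and the list of genes linked to earlier stages after Daxx loss, while others are marked where they appear. Some items under this rule are not reported here. The members and lists were chosen with earlier results of these data known. Alternatives were edgeR and DESeq2 1.42.0 on recovered reads, TMM scaling, pseudocounts of 0.5 and 10, no filter, a mean of 50, and leaving out each library. Scripts were tested on simulated data. Promoter letters were searched in RefSeq sequence of GRCm38.p6.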

Additional observations from a re-analysis of the deposited data

Results flagged for a closer look

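Values among the 4 Daxx-deleted libraries were screened for a library far from the other 3, by the ratio of its gap to the nearest library over the whole range, against Dixon's 95% critical value. Of 180 groups of 4 screened, 12 passed (6.67%), where about 1 in 20 would pass for independent, normally distributed values. Counts were not put on a log scale, genes such as the globins vary together, and the deleted group pools genotypes. That rate may therefore not hold here. Among red cell genes the highest library stood apart for Hbb-bs (1187, ratio 0.921), Hbb-bt (157, 0.959), Hba-a1 (519, 0.951), Trim10 (113, 0.908) and Atp1b2 (65.7, 0.897), in each case library d. Pf4 had a low value of 5.49 in library c (0.901). Mybpc3 had a low value of 145 (0.838) and Cyp2a5 one of 87.9 (0.877), both in library a, and Nkg7 one of 1548 in library d (0.883). The other 3 were Cdkn1a, whose highest library was at 214 beside 197 (0.990), the summed level of interferon-stimulated genes, lowest at 41042 (0.983), and that of nucleic acid sensing genes, highest at 49856 (0.864).

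For 4 genes all deleted libraries lay on one side of WT in GMPs and on the other side in KLS cells of the same animals, and the difference between the cell types was not tested. In GMPs the log2 fold changes were -0.45 for Elane, -0.38 for Ctsg, -0.56 for Gfi1 and 0.86 for E2f2. In KLS cells they were 0.67 for Elane, 1.33 for Ctsg, 0.83 for Gfi1 and -0.41 for E2f2, none of which was called there.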

How the results depend on the processing

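With all 6 libraries in the fit, edgeR called 535 genes, TMM scaling 629, pseudocounts of 0.5 and 10 gave 593 and 669, no filter 537 and a mean of 50 or more 602, against 613. DESeq2 called 1033 (649 higher and 384 lower). Leaving out 1 library gave 89 to 701 genes, 73 to 409 higher and 16 to 292 lower. The share of rises among called genes was 61.5%, 71.1% without WT a and 82.0% without WT b. Late granule genes called higher numbered 4 to 23, megakaryocyte and erythroid genes called lower 4 to 20, stem cell identity genes called lower 1 to 8 and Pu.1-bound genes called higher 1 to 13, each lowest without WT b. The number of libraries is smaller in these fits, and any other cause was not tested. DESeq2 called 26 repeat subfamilies against 15 (10 without a TMM factor), and leaving out 1 library gave 10 to 20, with 1 to 3 families called.

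Of 147 named genes, 97 were called. None reversed under any setting. With all 6 libraries 76 of the 97 were called by every fit, and 17 were called with each library left out, while 77 lost the call without WT b and 64 without WT a. A WT animal left alone is assumed to vary like the deleted group. IAPLTR2a2_Mm lost its call (-0.45) without a TMM factor and in all single-library omissions but that of WT b, and IAP sums were called without WT b (0.29, adjusted p = 0.043).

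No paired analysis was possible for genes within GMPs because WT and deleted animals share no number. With the animal as a replicate block, the GMP minus KLS difference was 0.22 for ERV1 and -0.03 for IAP (adjusted p = 0.96 for both), and 0 of 23 families were called, as without the block, so the block changed no call. With 2 WT animals the calls rest on few libraries, and the lowest depth was 15484248 reads assigned to genes.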

Other observations

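Genes near the floxed loci were called at shares near or below that of all genes (3.63%). Within 5 Mb of Daxx on chromosome 17, 7 of 205 tested genes were called (3.41%), namely Daxx itself, Cdkn1a (1.57 ± 0.41), Tnf (2.10 ± 0.46), Ppp1r18 (0.79 ± 0.17), Gpsm3 (1.25 ± 0.22), H2-D1 (0.39 ± 0.09) and Trim10 (-4.79 ± 1.18). Within 5 Mb of Spi1 on chromosome 2, 1 of 61 was called (1.64%), which was Mybpc3. Ppp1r18 and Gpsm3 were named after their values were seen.

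Some genes differed widely within the deleted group. Strc, the stereocilin gene, lay at 194 and 122 in deleted libraries a and b and at 17.4 and 32.8 in c and d, with WT at 16.4 and 19.6, and KLS cells of the same animals had 123 and 166 against 59.1 and 25.1. Thbs4 had the other order in both cell types, with KLS values of 27.7, 1.22, 581 and 1362 in libraries a to d. S100a6, a calcium-binding protein gene picked after its values were seen, rose in all 4 GMP libraries (28.4 and 54.4 in WT against 342, 253, 739 and 582, 3.45 ± 0.44, adjusted p = 4.34e-04) and was called with any 1 library left out. Which of these libraries carried floxed Pu.1 was not known from the column names, and no comparison was made within the deleted group.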
